A study of Mus musculus with 24 samples.

Results

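The expression of 10 genes of the transforming growth factor beta (TGF-beta) pathway was followed in CD8 T cells of mouse pancreas and blood. The genes were the ligand Tgfb1, the receptors Tgfbr1 and Tgfbr2, the signal carriers Smad2, Smad3 and Smad4, the inhibitor Smad7, the repressors Ski and Skil, and the ubiquitin ligase Smurf2. They were taken by symbol from the 24421 genes of the count tables, where all 10 were present. All 10 passed the filter on low counts in every comparison below.

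TGF-beta is secreted in a latent form and must be released before it can bind. The active ligand binds Tgfbr2, which recruits and phosphorylates Tgfbr1, and Tgfbr1 then phosphorylates Smad2 and Smad3, which enter the nucleus with Smad4. Smad7 and Skil are induced by the signal and limit it, and Smurf2 marks receptors, Smads and Skil for degradation. In CD8 T cells the pathway is known for promoting the integrin gene Itgae (CD103) and tissue residence and for restraining genes of cytotoxic effectors.

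The libraries were made from cells sorted as CD45+CD3+CD8+ from KC mice and from WT B6 mice, and the series title places the study in the progression of pancreatic cancer. The labels used here give neither the alleles, the promoter that drives them, the strain nor the sex of the KC mice, and they name no treatment. KC pancreas was sampled in 12 libraries, with 3 at 4 weeks after birth, 2 at 9 weeks, 3 at 13 weeks, 2 at 20 weeks and 2 at 30 weeks. KC blood was sampled in 9 libraries, with 2, 1, 3, 1 and 2 at the same ages. WT pancreas was sampled once at 9 weeks and once at 30 weeks, and WT blood once at 30 weeks. The labels do not say that each library came from its own animal, so p-values measure only the spread between these libraries.

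Each library held between 6352070 and 16716169 reads assigned to genes (median 9602260), and 10066 to 12949 genes were detected. CD8 T cell markers (Ptprc, Cd3d, Cd3e, Cd3g, Cd8a, Cd8b1, Cd247 and Lck) were all detected in every group and summed to between 9107 and 21190 CPM (a gene's reads per 1000000 reads assigned to genes) in KC pancreas and between 9521 and 17800 CPM in KC blood. Transcripts that mark other cells were detected too. Acinar markers summed to 0.103 to 7960 CPM in KC pancreas and 0.0896 to 65.9 CPM in KC blood, with Amy2a5 at 0, and fibroblast markers to 0 to 546 and 0 to 1.65 CPM, with Pdgfrb at 0 in pancreas and Lum at 0 in blood. Macrophage markers summed to 2.50 to 393.5 and 3.09 to 392.7 CPM, with C1qa at 0 in blood. B cell markers summed to 0.543 to 95.4 and 0.4545 to 75.65 CPM. Endothelial markers summed to 6.05 to 247.5 and 25.2 to 522 CPM, with Kdr at 0 in both and Tek and Emcn at 0 in blood. These sums do not show that such cells were in the sorts. The part of such cells in the levels of the 10 genes was not tested. The libraries were also split into 2 sets, called carry-over sets here, from the counts alone. They rest on 95 genes, each very high in 1 of 14 source libraries and at most at trace levels elsewhere. A search chose the split in which such traces were most often found in the source's own set rather than the other. Traces were detected in 92.4% of the cases within the source's own set and in 47.7% outside it. These shares are what the search raised, so they do not test the sets. The first set held the KC pancreas libraries of 4 and 13 weeks, the KC blood libraries of 4 weeks, Sample_131B8 of 13 weeks and the 3 WT libraries, and the second set the others. The labels give no run or lane, so the sets are not a batch named by the study, and carry-over as their source was not tested. Acinar markers summed to 59.6 to 65.9 CPM in the KC blood libraries of the first set and to 64.0 CPM in WT blood. In the KC blood libraries of the second set they summed to 0.0896 to 1.40 CPM. The source of these reads in blood was not tested. Fewer cells of a type and less RNA per cell cannot be told apart in such bulk libraries.

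Ski, Smurf2, Tgfbr2 and Smad4 were the most abundant of the 10 genes per length, and Tgfb1 the least. On the scale of CPM per kb of exon, the median over KC pancreas libraries was 65.2 for Ski, 40.5 for Smurf2, 35.2 for Tgfbr2, 30.1 for Smad4, 24.9 for Skil, 14.4 for Smad7, 7.48 for Smad2, 5.78 for Tgfbr1, 4.12 for Smad3 and 2.76 for Tgfb1. In KC blood Ski was again highest, at 45.5 CPM per kb, followed by Smad4 at 44.8, Tgfbr2 at 36.1, Smurf2 at 31.6, Skil at 15.9, Smad7 at 15.0, Smad2 at 14.3, Tgfbr1 at 8.67, Smad3 at 8.56 and Tgfb1 at 2.84. The receptor that binds ligand therefore had a higher median level per length than its partner Tgfbr1 in both tissues. Neighbours in these orders were not separated by their spread, since the libraries of 1 tissue differed by at least 4.42 times for each gene between the lowest and the highest CPM. The 10 genes together took 1030 to 2272 CPM of a library.

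**Figure D1:**
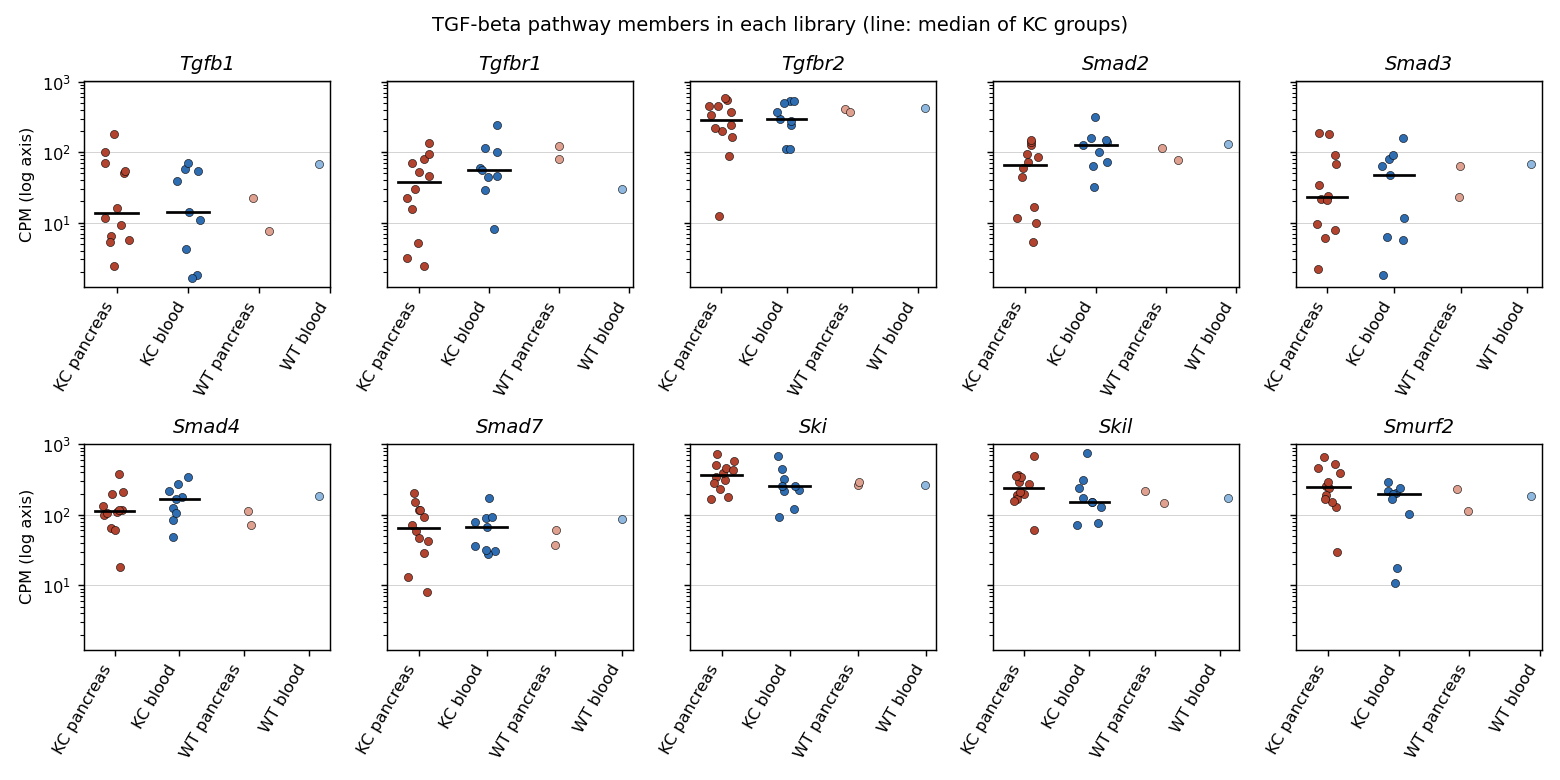
CPM of each of the 10 genes (log axis) in every library, grouped as KC pancreas, KC blood, WT pancreas and WT blood, with 1 point per library and a line at the median of each KC group. The KC pancreas and KC blood points overlap for all 10 genes, and the WT points lie within the range of the KC points of the same tissue.

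Promoter windows of RefSeq on GRCm38.p6 were found for 6 of the 10 genes, and the 250 bases before the start were searched on both strands. The Smad box CAGAC, which reads as GTCTG when it lies on the other strand, is the short motif to which Smad3 and Smad4 can bind. It was present once in the windows of Tgfbr2 and Smurf2 and in that of a second, internal start of Tgfbr1. The box was absent from those of Tgfb1, Smad3, Ski and the first start of Tgfbr1, while 42.2% of the 32851 promoter windows of this length held it. The palindrome GTCTAGAC was in none of the 7 windows and in 0.167% of all windows. The GC-rich motif GGCGC, which reads as GCGCC when it lies on the other strand, can also be bound by Smad proteins, and its copies can overlap. It occurred 7 times before Ski, 6 times before Smurf2, 3 times before the first start of Tgfbr1 and once before Tgfb1, and 32% of all windows held it. The 2 windows below are shown because they precede the ligand-binding receptor and Smurf2, the gene with the smallest p between tissues, and because each holds a Smad box at its main start, in capitals. The Tgfbr2 window is chr9:116175364-116175613 and the Smurf2 window chr11:106920716-106920965, both on the minus strand and written 5′ to 3′. Their GC content was 58.4% and 82%, against a median of 52.4% over all windows.
Tgfbr2: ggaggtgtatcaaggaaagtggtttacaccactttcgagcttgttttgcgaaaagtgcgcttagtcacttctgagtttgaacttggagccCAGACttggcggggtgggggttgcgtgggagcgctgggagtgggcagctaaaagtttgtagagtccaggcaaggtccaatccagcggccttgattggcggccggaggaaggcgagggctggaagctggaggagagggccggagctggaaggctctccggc
Smurf2: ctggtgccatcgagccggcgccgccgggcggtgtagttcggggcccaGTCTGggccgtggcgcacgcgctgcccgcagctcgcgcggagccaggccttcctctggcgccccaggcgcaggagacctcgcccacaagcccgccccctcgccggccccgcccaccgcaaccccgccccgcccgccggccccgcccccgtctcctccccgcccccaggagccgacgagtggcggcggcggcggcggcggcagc

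Between KC pancreas and KC blood, no gene of the pathway set rose or fell. The level of Tgfbr2 was nearly the same in both tissues, Smurf2 had the largest positive estimate and Tgfbr1 and Smad2 the only negative ones. The median CPM was lower in pancreas for 7 of the 10 genes. With age as a covariate, edgeR's quasi-likelihood test called 0 of the 10 genes at a Benjamini-Hochberg adjusted p under 0.05, while it called 10 of 11059 genes in all (0.0904%). At an unadjusted p under 0.05 stood 1 of the 10 genes, against 9.85% of all genes, and DESeq2, which gave a p for 9 of them, likewise called 0 and had 1 at that unadjusted level. The estimate was positive for 8 of the 10 genes, against 45.4% of all genes, with a median log2 fold change of 0.35 against -0.12 over all genes. For 5 of the 8, Tgfb1, Tgfbr2, Smad3, Smad4 and Smad7, the median CPM was lower in pancreas, so estimate and medians point opposite ways. The test recovered 69.5% of genes simulated to differ by 4 on the log2 scale, 12.1% by 2 and 1.54% by 1, so differences of the size seen here were mostly below what it could call.

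Tgfb1 encodes the ligand TGF-beta 1 (mm10 chromosome 7, 25687002 to 25705077, plus strand). Its CPM had a lowest, median and highest value of 2.46, 13.9 and 182 in the 12 KC pancreas libraries and of 1.66, 14.3 and 70.3 in the 9 KC blood libraries. The medians were close, and both tissues held libraries near 2 CPM. The log2 difference, pancreas over blood, was 1.06 ± 0.90 (SE), with a 95% interval of -0.74 to 2.86 and an adjusted p of 0.759 by edgeR's quasi-likelihood test. Platelets store TGF-beta 1, and the 8 platelet markers, all detected in both groups, summed to 70.6 to 291 CPM in KC blood and 1.89 to 101 CPM in KC pancreas. The KC blood library with the highest platelet sum, Sample_205B8, had the lowest Tgfb1 level of the 9, 1.66 CPM, while the WT blood library, with a higher platelet sum of 382 CPM, had 68.4 CPM. The part of platelets in the Tgfb1 levels was not tested.

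Tgfbr2 (chromosome 9, 116084293 to 116175360, minus strand) is the receptor chain that binds ligand. It reached 12.5, 289 and 596 CPM as lowest, median and highest in KC pancreas and 112, 296 and 531 CPM in KC blood. Apart from 2 pancreas libraries below 100 CPM, Sample_132P8 at 12.5 and Sample_94P8 at 88.5, all KC libraries lay between 112 and 596 CPM. The log2 difference was 0.07 ± 0.44 (edgeR's quasi-likelihood test, adjusted p = 0.983). In this fit its 95% interval of -0.81 to 0.94 narrowly left out a change of 2-fold in either direction. Some other fits were less precise, with 0.14 ± 0.47 with the carry-over set as a term and 0.09 ± 0.50 without the filter on low counts. The intervals of those fits are not reported here, so a 2-fold change is not excluded under every choice. Its partner Tgfbr1 (chromosome 4, 47353222 to 47414931, plus strand), the kinase that phosphorylates Smad2 and Smad3, had 2.46, 37.8 and 137 CPM in KC pancreas and 8.24, 56.7 and 245 CPM in KC blood. Here the pancreas held the 3 lowest levels of all, 2.46, 3.15 and 5.15 CPM, and blood the highest. The log2 difference of Tgfbr1 was -0.90 ± 0.71 (adjusted p = 0.738 by the same test), with an interval of -2.33 to 0.54.

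Among the Smads that carry the signal, Smad2 (chromosome 18, 76241580 to 76310963, plus strand) had 5.30, 65.7 and 146 CPM as lowest, median and highest in KC pancreas and 32.1, 126 and 311 CPM in KC blood. Its 4 lowest values, 5.30, 9.73, 11.6 and 16.7 CPM, were all in pancreas. The log2 difference was -0.86 ± 0.63 (adjusted p = 0.714, edgeR's quasi-likelihood test), and the interval of -2.13 to 0.41 spanned 0. Smad3 (chromosome 9, 63646767 to 63757994, minus strand) ran from 2.20 through a median of 22.8 to 189 CPM in KC pancreas and from 1.83 through 47.4 to 159 CPM in KC blood, a range of 86.9 times within blood. Smad4 (chromosome 18, 73639009 to 73703780, minus strand), the shared partner that also serves bone morphogenetic protein signals, had 18, 112 and 377 CPM in KC pancreas and 47.8, 166 and 339 CPM in KC blood. The log2 differences of Smad3 and Smad4 were 0.48 ± 0.86 (adjusted p = 0.910) and 0.10 ± 0.54 (adjusted p = 0.980) by the same test. Both estimates were positive while both medians were lower in pancreas.

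Smad7 blocks the receptor kinase and is itself a target of the pathway (chromosome 18, 75367529 to 75395935, plus strand). It had 8.15, 65.3 and 203 CPM in KC pancreas and 27.5, 67.8 and 172 CPM in KC blood, with a log2 difference of 0.34 ± 0.71 (adjusted p = 0.926, edgeR's quasi-likelihood test). Ski (chromosome 4, 155154075 to 155222592, minus strand), which holds Smad complexes in a repressed state, had 167, 363 and 739 CPM in KC pancreas and 93.2, 253 and 683 CPM in KC blood. Ski was the steadiest of the 10 genes in pancreas, where its highest value was 4.42 times its lowest. Its relative Skil (chromosome 3, 31095058 to 31122577, plus strand) had 61.5, 242 and 695 CPM in pancreas and 71.9, 154 and 752 CPM in blood. The log2 differences were 0.62 ± 0.49 (adjusted p = 0.735) for Ski and 0.37 ± 0.52 (adjusted p = 0.882) for Skil by the same test, and the tissues overlapped for both. Within the carry-over sets the estimates had opposite signs, -0.97 for Ski and -1.03 for Skil in the first set and 1.79 for Ski and 1.51 for Skil in the second (adjusted p of 0.508, 0.533, 0.545 and 0.545).

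Smurf2 (chromosome 11, 106820066 to 106920715, minus strand), the ubiquitin ligase whose promoter window is printed above, had 30.0, 250 and 661 CPM in KC pancreas and 10.8, 195 and 292 CPM in KC blood. Of the 4 lowest values in KC libraries, 3 were in blood, at 10.8, 17.8 and 104 CPM, and 1 in pancreas, Sample_133P8 at 30.0 CPM. The 4 highest values, 388, 456, 529 and 661 CPM, were in pancreas, yet the other 8 pancreas libraries lay within the range of blood. The log2 difference was 1.40 ± 0.53, with a 95% interval of 0.34 to 2.47, and it did not pass (edgeR's quasi-likelihood test, p = 0.0111, adjusted p = 0.316). Its sign was positive in 30 of 30 alternative fits, which share most of their libraries, with estimates of 0.66 to 2.65 and adjusted p between 0.089 and 0.935. The 3 low blood values were those of the KC blood libraries of the first carry-over set. In the second set Smurf2 lay between 154.5 and 388 CPM in KC pancreas and between 168 and 292 CPM in KC blood. Tissue ranges that did not overlap were found for 0 of the 10 genes and for 0.0279% of 7171 genes with a mean of at least 10 CPM.

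**Figure D2:**
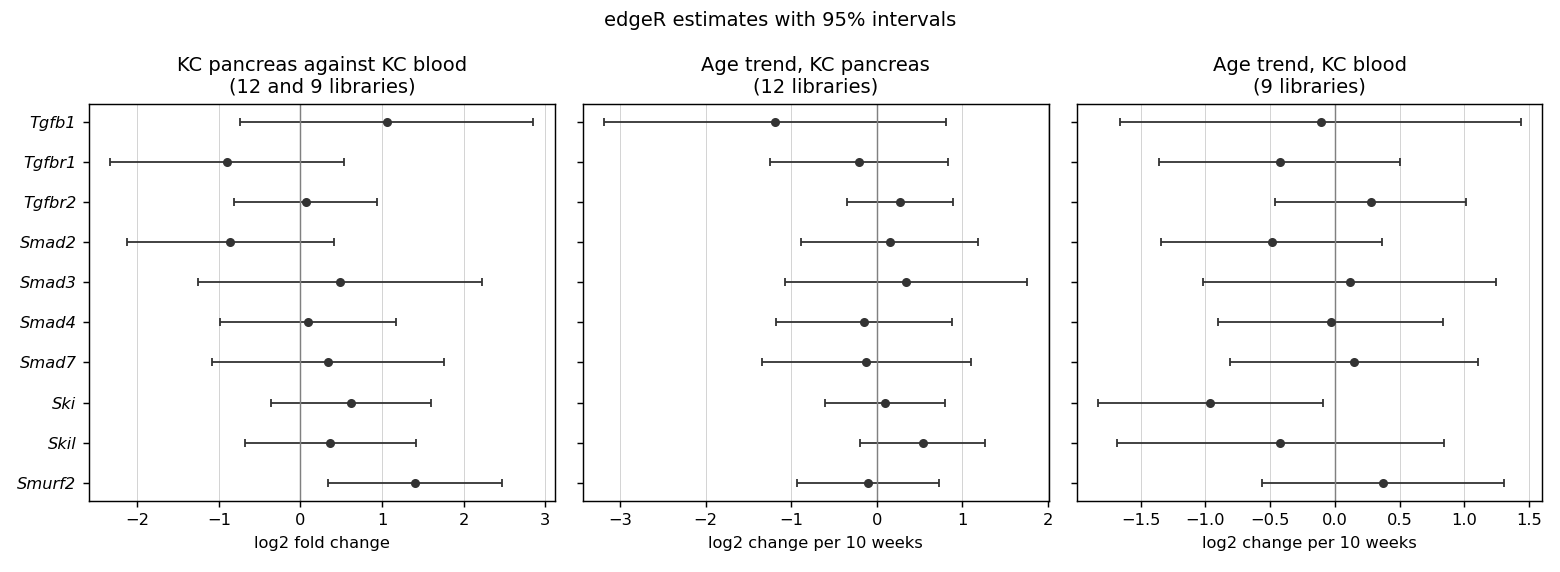
Estimates of edgeR's quasi-likelihood model for the 10 genes with 95% intervals on the log2 scale: KC pancreas over KC blood, and the age trends per 10 weeks in KC pancreas and in KC blood. The interval excludes 0 for Smurf2 between tissues (0.34 to 2.47) and for Ski with age in blood (-1.83 to -0.09), and neither passed after adjustment over all genes.

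No other gene of the pathway passed between tissues. Of 85 genes in 7 lists (ligands and their release, other receptors, other Smads and anchors, nuclear partners, turnover and brakes, and genes raised or lowered by TGF-beta in T cells), 62 were tested, 0 rose and 0 fell, and 6 stood at an unadjusted p under 0.05 (9.68%, against 9.85% of all genes). Among genes raised by TGF-beta in T cells, 7 of 11 were tested and 0 passed, with all 7 estimates positive and a median log2 difference of 0.69. Itgae, which encodes the CD103 integrin chain of resident CD8 T cells, had a median of 76.6 CPM in KC pancreas (2.97 to 233) and 18.1 CPM in KC blood (2.09 to 55.8), and its log2 difference of 1.74 ± 0.90 did not pass (adjusted p = 0.530, edgeR's quasi-likelihood test). Cd101, another gene of resident T cells, differed by 1.96 ± 1.30 (adjusted p = 0.671 by the same test), and Id2, Id3, Foxp3 and Itga1 by 0.01 to 2.44. Cd101 and Itga1 were low, with medians of 1.66 and 0.219 CPM in KC pancreas and of 0.696 and 0.119 CPM in KC blood. The highest Cd101 value was 163 CPM, in pancreas. Foxp3 is also a marker of regulatory T cells, whose list with CD4 genes summed to 57.8 to 215 CPM in KC pancreas and 29.4 to 349 CPM in KC blood, and its part in the result was not tested.

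Of the genes lowered by TGF-beta in T cells, 11 of 12 were tested, 0 passed, and 5 estimates were positive, with a median of -0.20. The log2 difference was 2.15 for the regulator Eomes (adjusted p = 0.351), 2.30 for the regulator Tbx21 (0.592) and 1.11 for perforin, Prf1 (0.801), and -1.81 for the granzyme Gzmb (0.586), -1.90 for the granzyme Gzma (0.744) and -3.18 for the chemokine receptor Cx3cr1 (0.345), all adjusted p by edgeR's quasi-likelihood test. For the cytokine Ifng it was 3.6 (adjusted p = 0.322 by the same test), with medians of 0.174 CPM in KC pancreas and 0.116 CPM in KC blood and a highest value of 139 CPM in pancreas. Cx3cr1 and Tbx21 were low too, with medians of 0 and 1.55 CPM in KC pancreas and of 0.696 and 0.711 CPM in KC blood. The other tested genes of this list had smaller differences, -0.20 ± 0.36 for S1pr1, -0.76 for Klf2, -0.50 for Klrg1 and 0.11 for Fasl. In the ligand list the smallest p by the same test belonged to the latent TGF-beta binding protein Ltbp2 (log2 difference -4.24, adjusted p = 0.337) and to Thbs1, which can release latent ligand and is abundant in platelets (-3.09, adjusted p = 0.403). Ltbp2 had medians of 0 CPM in KC pancreas and 0.139 CPM in KC blood. Its highest value was in pancreas, 66.2 CPM against 17.9 CPM in blood, opposite to the estimate. In the other lists the genes with the smallest p were the receptors Bmpr1a and Acvr2a (-1.59 and -0.58), Smad1 and the anchor Zfyve16 (-0.68 and -0.19), the nuclear partners Zeb1 and Runx3 (-1.05 and -0.73), and the pseudoreceptor Bambi and the deubiquitinase Usp15 (4.37 and 0.81). None of these passed. Bambi had medians of 0.574 CPM in KC pancreas and 0.116 CPM in KC blood, and its highest value was 70.1 CPM in pancreas.

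With age, no gene of the set passed in KC pancreas. The trend was fitted as a log2 slope per 10 weeks from 4 to 30 weeks, and 0 of the 10 genes passed, with 0 at an unadjusted p under 0.05, against 28 called of 9555 genes (0.293%) and 8.95% at the unadjusted level. By DESeq2, 0 passed and 1 stood at that level, Tgfb1 (adjusted p = 0.255). The slopes were positive for 5 genes and negative for 5 (47.5% of all genes were positive), with a median of -0.0046 against -0.044 over all genes. Of the pathway lists, 57 genes were tested, 0 rose, 0 fell and 6 (10.5%) stood at an unadjusted p under 0.05.

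Tgfb1 had the steepest slope in KC pancreas, -1.19 ± 0.97 (adjusted p = 0.851, edgeR's quasi-likelihood test), but -0.33 with a term for the carry-over set and 2.17 in the first set alone. At 4 weeks the 3 libraries had 16.2, 51.0 and 54.5 CPM, at 9 weeks 6.44 and 69.7, at 13 weeks 2.46, 102 and 182, at 20 weeks 5.66 and 11.6, and at 30 weeks 5.35 and 9.19. The 4 libraries of 20 and 30 weeks were therefore low, at 5.35 to 11.6 CPM, but 2 younger libraries were in or below that range. Skil had the steepest positive slope, 0.54 ± 0.35 (adjusted p = 0.760), and Tgfbr2 had 0.27 ± 0.30 (adjusted p = 0.911). The slopes of the other 7 genes lay between -0.21 for Tgfbr1 and 0.35 for Smad3. In the same libraries the acinar genes Cel, Cela1, Cpa1 and Pnlip and the fibroblast genes Bgn and Col3a1 fell with age in this fit, but with the set as a term, or in either set alone, 0 of all genes were called. The acinar markers summed to 1419 to 7960 CPM at 4 weeks, 0.132 to 0.366 at 9 weeks, 80.6 to 475 at 13 weeks, 0.103 to 0.136 at 20 weeks and 0.353 to 59.0 at 30 weeks, so the libraries of 4 and 13 weeks were the high ones. Their part in the slopes was not tested. The carry-over sets coincide with age in pancreas, with 4 and 13 weeks in the first and 9, 20 and 30 weeks in the second, and a term for the set turned the sign of the slope of Smad4, Smad7 and Smurf2 and made that of Smad3 the steepest, 1.09.

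In KC blood, 0 of the 10 genes passed and 1 stood at an unadjusted p under 0.05, against 0 called of 9933 genes (0%) and 8.76% at the unadjusted level. DESeq2 called 0 and had 0 at that level among the 8 genes to which it gave a p, which did not include Ski or Skil. The slope was positive for 4 of the 10 genes, against 43.9% of all genes. The gene at the unadjusted level by edgeR was Ski, whose slope was -0.96 ± 0.42 per 10 weeks (edgeR's quasi-likelihood test, p = 0.0311, adjusted p = 0.531). Its CPM was 319 and 683 at 4 weeks, 222 at 9 weeks, 215, 257 and 442 at 13 weeks, 93.2 at 20 weeks and 120 and 253 at 30 weeks. The 2 lowest values were thus at 20 and 30 weeks and the highest at 4 weeks, and the slope was negative in 14 of 14 alternative fits. The 3 highest values, 319, 442 and 683 CPM, were those of the 3 libraries of the first carry-over set. The slope was -0.11 with the set as a term and -0.19 in the second set alone (adjusted p of 1 and 0.999, edgeR's quasi-likelihood test). The difference between the slopes of pancreas and blood was 1.07 ± 0.50 for Ski (p = 0.0388, adjusted p = 0.556), positive in 26 of 26 alternative fits, at 0.76 to 1.36. These fits share most of their libraries, and none was run within a carry-over set alone. For that difference 0 of the 10 genes passed and 1 stood at an unadjusted p under 0.05, against 0.0543% and 8.33% of 11059 genes, and DESeq2 gave the same counts for the 9 it tested. The difference was positive for 6 of the 10 genes, against 52.6% of all genes.

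The slopes of the remaining genes did not pass in either tissue. Skil in KC pancreas had 61.5, 196 and 294 CPM at 4 weeks, 191 and 273 at 9 weeks, 167, 210 and 364 at 13 weeks, 155 and 695 at 20 weeks and 345 and 361 at 30 weeks. Both 30-week libraries were thus among the 4 highest, but the highest and the second lowest value came from 20 weeks. Skil in KC blood had 71.9 and 238 CPM at 4 weeks, 174 at 9 weeks, 129, 154 and 752 at 13 weeks, 76.1 at 20 weeks and 151 and 310 at 30 weeks, with a slope of -0.42 ± 0.61 (edgeR's quasi-likelihood test, adjusted p = 0.874). Smad7, the inhibitor induced by the pathway, had 58.2, 93.6 and 153 CPM in KC pancreas at 4 weeks, 8.15 and 72.4 at 9 weeks, 29.1, 42.1 and 116 at 13 weeks, 115 and 203 at 20 weeks and 13.2 and 47.5 at 30 weeks. Libraries of the same age differed by up to 72.4 against 8.15 CPM, and the slope of Smad7 was -0.12 ± 0.59 in pancreas and 0.15 ± 0.47 in blood (adjusted p = 0.988 and 0.953). In blood Smad2 had a slope of -0.49 ± 0.42 (adjusted p = 0.770) and Tgfbr1 of -0.43 ± 0.45 (adjusted p = 0.822) by the same test. Both were highest in the same 4-week library, Sample_42B8, at 311 and 245 CPM, and without it the estimates had the other sign, 0.053 and 0.50.

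Tgfbr2 in blood was higher in the older libraries by level. Its CPM was 112 and 243 at 4 weeks, 296 at 9 weeks, 112, 280 and 370 at 13 weeks, 529 at 20 weeks and 498 and 531 at 30 weeks. The 3 libraries of 20 and 30 weeks, all of the second carry-over set, therefore lay above all 6 younger ones, 112 to 370 CPM, while the WT blood library of 30 weeks had 419 CPM. This split by age was chosen after the values were seen. It held for 1 of the 10 genes and for 2.05% of 7171 genes in blood, and for 0 of the 10 genes and 0.237% of all genes in pancreas, where Tgfbr2 had 198 and 217 CPM at 20 weeks and 557 and 596 CPM at 30 weeks. The fitted slope in blood was 0.28 ± 0.36 (edgeR's quasi-likelihood test, adjusted p = 0.853) and the difference between tissues 0.01 ± 0.45 (adjusted p = 0.997). Smurf2 in blood had 104 and 17.8 CPM at 4 weeks, 205 at 9 weeks, 10.8, 195 and 215 at 13 weeks, 168 at 20 weeks and 239 and 292 at 30 weeks, with a slope of 0.37 ± 0.46 (adjusted p = 0.846). Its low values were the 3 libraries of the first carry-over set. Over the pathway lists in blood, 55 genes were tested, 0 rose, 0 fell and 6 (10.9%) stood at an unadjusted p under 0.05.

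**Figure D3:**
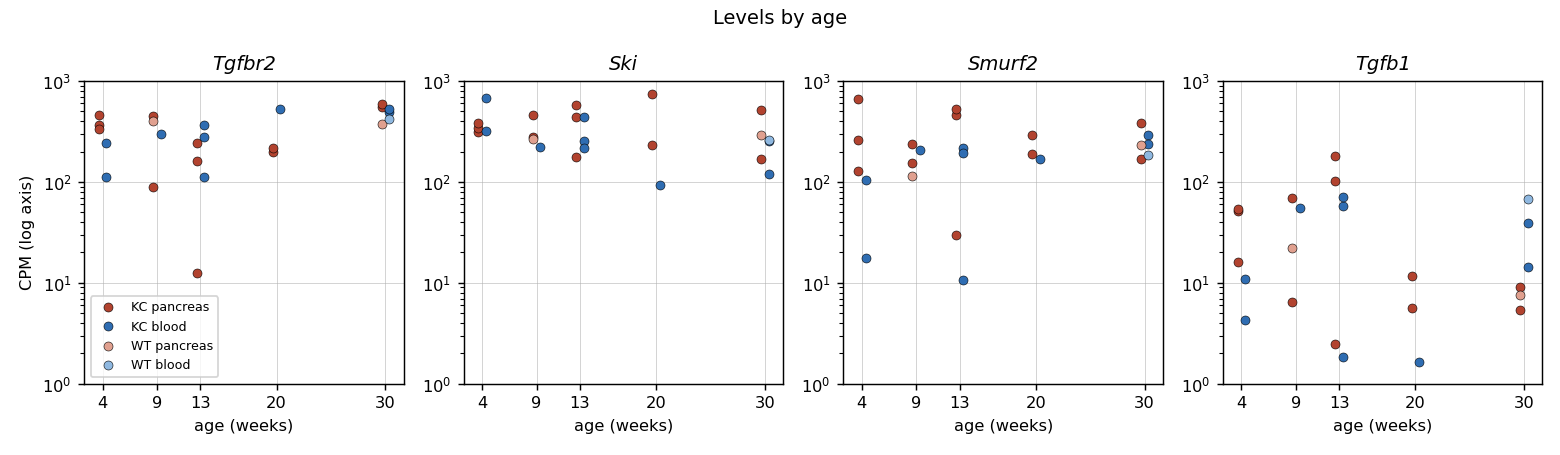
CPM (log axis) of Tgfbr2, Ski, Smurf2 and Tgfb1 against age in weeks, with 1 point per library and points of the groups set slightly apart. In KC blood Tgfbr2 lies at 498 to 531 CPM at 20 and 30 weeks and at 112 to 370 CPM before, and Tgfb1 in KC pancreas lies at 5.35 to 11.6 CPM at 20 and 30 weeks.

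The KC and WT levels of the 10 genes overlapped in both tissues. In pancreas, 20 of 20 WT values, and in blood 10 of 10, lay within the range of the KC libraries of the same tissue. These ranges pool all ages and span at least 4.42 times for each gene. The share over all genes was not counted, so the overlap is not shown to be particular to these genes. At 9 and 30 weeks WT pancreas had 405 and 371 CPM of Tgfbr2, 121 and 78.6 of Tgfbr1, 22.0 and 7.66 of Tgfb1, 264 and 291 of Ski and 114 and 235 of Smurf2. All WT libraries were of the first carry-over set. The KC libraries of 9 and 30 weeks in pancreas and of 30 weeks in blood were all of the second. Genotype and carry-over set therefore cannot be told apart in the comparisons that follow. In pancreas the fit had 1 mean per genotype and age, and KC and WT were contrasted over 9 and 30 weeks only. The KC libraries of other ages helped to measure the spread. With age in the fit, edgeR's quasi-likelihood test called 0 of the 10 genes in pancreas, with 0 at an unadjusted p under 0.05, against 28 of 12374 genes (0.226%) and 5.79%. Of these 28 genes, 9 were acinar markers, all 9 tested and all lower in KC over 9 and 30 weeks, where genotype and set coincide. The part of acinar markers in the values of the 10 genes was not tested. DESeq2 called 0 with 0 at that level in both tissues. The log2 differences, KC over WT, ran from -0.85 for Smad2 to 0.64 for Skil with SE of 0.86 to 1.60, so even the narrowest interval, that of Ski, reached from -1.28 to 2.10. They were positive for 6 of the 10 genes, against 58.9% of all genes. In blood at 30 weeks 0 of the 10 genes passed and 0 stood at an unadjusted p under 0.05, against 0% and 2.83% of 12496 genes, with differences from -1.45 for Tgfb1 to 1.75 for Tgfbr1 and SE of 1.37 to 2.33, of which 8 were positive (49.5% of all genes). Of genes simulated to differ by 4 on the log2 scale, the test recovered 10% in pancreas and 0% in blood, so with 1 WT library in blood its counts there do not bear on whether the genes differed.

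The WT libraries of 30 weeks, 1 from each tissue, had no replicate, and the ratio between them is given without a test. Tgfb1 had 96 reads (7.66 CPM) in WT pancreas and 1143 reads (68.4 CPM) in WT blood, a log2 ratio of -3.16. In that blood library the platelet markers summed to 382 CPM, against 3.59 and 6.27 CPM in the WT pancreas libraries, where Itga2b, Gp9 and Treml1 were at 0, and the part of platelets in this ratio was not tested either. Tgfbr2 was close between the WT tissues, with 4653 reads (371 CPM) and 7004 reads (419 CPM). Smad3 and Smad4 had log2 ratios of -1.55 and -1.35 and Tgfbr1 1.38, and the remaining genes lay between -0.75 and 0.35. Ratios favoured pancreas for 4 of the 10 genes and for 2837 of 7152 genes.

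Within each KC group the 10 genes differed in how much they varied. The SD of log2(CPM + 1) over the KC pancreas libraries was smallest for Ski, 0.66, and Skil, 0.86, which placed them at the 3.6 and 7.98 percentile of 7171 genes, and largest for Smad3 and Tgfb1, 1.86 each, at the 59.7 and 59.6 percentile. The median over all genes was 1.74 in pancreas and 1.69 in blood. In KC blood Tgfbr2, Ski and Smad4 had an SD of 0.87, 0.87 and 0.88, and Smad3 had 2.06. The receptor Tgfbr2 and Smad2 were steadier in blood than in pancreas by value (0.87 against 1.51, and 0.93 against 1.60), and Smurf2 the reverse (1.70 against 1.17), which was not tested. The lowest count of any of the 10 genes was 14 reads, a counting coefficient of variation of 26.7% if each read is independent. Between libraries it was 44.1% to 126%. The number of RNA molecules behind the reads is not given, and the part of their sampling in this spread was not tested.

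The 4 libraries in which more than 12000 genes were detected lay close together, though they came from pancreas and blood, from KC and WT mice and from 9, 13 and 30 weeks (Sample_95P8, Sample_95B8, Sample_132B8 and Sample_W3B8). Tgfb1 lay between 54.6 and 69.7 CPM in these and between 1.66 and 182 CPM in the other 20. Smad7, the inhibitor induced by the pathway, lay between 72.4 and 90.0 CPM against 8.15 to 203. Ski lay between 222 and 279 CPM, Smurf2 between 186 and 240 CPM and Smad3 between 63.7 and 91.9 CPM. Their SD on the log2 scale was smaller than that of the other 20 libraries for 10 of the 10 genes, with a median of 0.253 against 1.38, and for 7151 of 7171 genes, with medians of 0.434 and 1.81. These libraries were grouped from the data and are not groups of the study.

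Over all 24 libraries, the mean distance of the 10 genes from their median levels was smaller where more genes were detected (Pearson's r = -0.614, permutation p = 0.00234, adjusted p = 0.00468; Spearman's rho = -0.681, permutation p = 0.00033, adjusted p = 0.0011; 10 p-values in the family). Without the 2 libraries farthest from the median number of genes r was -0.654. Within the first carry-over set of 12 libraries r was -0.748 (permutation p = 0.00315, adjusted p = 0.00525) and rho -0.811 (permutation p = 0.00225, adjusted p = 0.00468), and within the second set r was -0.584 (permutation p = 0.0456, adjusted p = 0.057) and rho -0.559 (permutation p = 0.061, adjusted p = 0.061), which did not pass. The same measure over 7171 genes gave r = -0.79 (permutation p = 1e-05, the smallest 100000 permutations can give), so the relation was not particular to the pathway. With the total reads assigned to genes r was -0.391 (permutation p = 0.0563, adjusted p = 0.061) and rho -0.439 (permutation p = 0.032, adjusted p = 0.0458). The library farthest from the medians was Sample_132P8, at 2.14 on the log2 scale, in which Tgfb1, Tgfbr1, Tgfbr2 and Smad2 were the lowest of the KC pancreas libraries and Smad3 the highest.

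**Figure D4:**
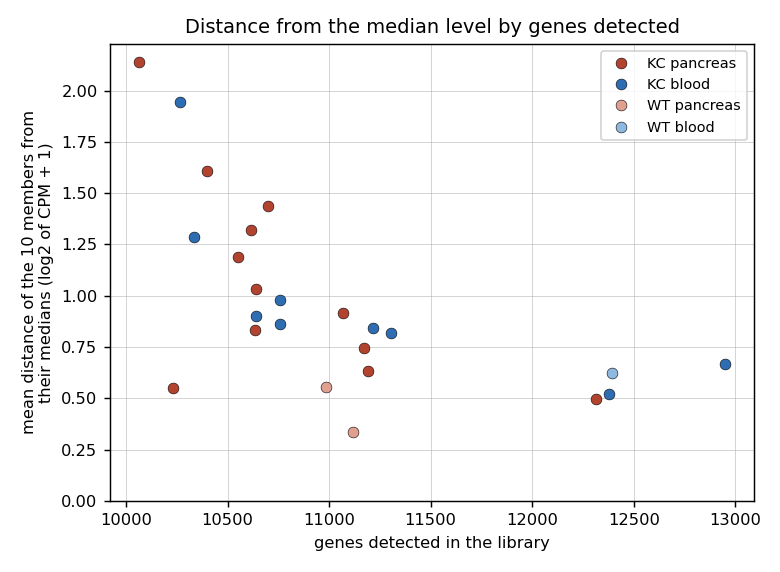
Number of genes detected in each library against the mean distance of the 10 genes from their median level over the libraries, in log2(CPM + 1). Each point is 1 library, coloured by group, and the 4 libraries with more than 12000 genes lie apart at the right with small distances, while the largest distance, 2.14, is at 10066 genes.

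No pair of the 10 genes passed a test of correlation from library to library. Of their 45 pairs over the 21 KC libraries, 0 passed by Pearson's r or by Spearman's rho after adjustment over the pairs (lowest adjusted permutation p 0.067 and 0.44), and the median rho was 0.0753. Tgfbr1 and its substrate gene Smad2 came closest, with r = 0.656 (permutation p = 0.00149, adjusted p = 0.067) and rho = 0.51 (permutation p = 0.0195, adjusted p = 0.44). Without the 2 libraries most extreme in Tgfbr1 r was 0.398, and within the carry-over sets it was 0.821 over 9 libraries and 0.375 over 12. The genes most like Tgfbr2 over the 21 libraries, by Spearman's rho among 7171 genes, were Btg2 (0.853), Camta1 (0.83) and Dock10 (0.818). For Smad7 they were Abcd3 (0.792), Prdm15 (0.79) and Zmynd8 (0.766), and for Tgfb1 Nup54 (0.847), Lin9 (0.829) and Uspl1 (0.812). These are the highest of 7171 values each and carry no test, and the libraries share the differences in detection given above.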

How the data were processed

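T cells sorted by CD45, CD3 and CD8 were profiled by RNA-seq in 24 libraries. The authors' deposited files hold raw read counts per gene symbol, and per the submitters' processing notes TopHat, SAMtools, HTSeq, DESeq and mm10 were used. Versions, settings, annotation and strand use are not given in the sources used here, and without strand, genes that overlap or lie antisense to one another share reads that could not be separated. The exons of Smurf2 overlap the microRNA gene Gm27322, and those of the other 9 genes overlap no gene in the GENCODE M21 annotation of mm10. The 5 tallies of unassigned reads were left out. Of the tallied reads, 11.7% to 32.5% were assigned to genes.

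Groups and ages came from the labels. CPM scale a gene's count to the sum of gene counts, and descriptions on a log scale used log2(CPM + 1). Low genes were removed by edgeR's filterByExpr at a minimum of 10 reads, and two-sided robust quasi-likelihood tests with TMM factors were run over all remaining genes (edgeR 4.0.16, R 4.3.3, Benjamini-Hochberg threshold 0.05), and DESeq2 1.42.0 was an alternative. The tissue and difference-of-trend fits used the 21 KC libraries, the trends those of 1 tissue, and the WT comparisons those of the tissue. Other alternatives were RLE scaling, no filter, a term for the carry-over set or the title number, no age term, each library left out, and each carry-over set alone, chosen after seeing the data. The code was tested on simulated data. Correlations used 100000 permutations.

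All 10 genes are named in every comparison, and from each other list up to 2 genes with the smallest unadjusted p between tissues, with some added after their values were seen (Itgae, Cd101, Itga1, Foxp3, Id2, Id3, Ifng, Eomes, Cx3cr1, Gzma, Gzmb, Prf1, Tbx21, S1pr1, Klf2, Klrg1 and Fasl where outside that rule). The value of 1 tested gene of the list raised by TGF-beta is not reported here. The 10 genes and all lists were chosen with earlier results of these data known. Age trends follow the labels, which include 9 weeks, an age the series design text does not name.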

Additional observations from a re-analysis of the deposited data

Results flagged for a closer look

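Of the 10 genes checked in the 9 KC blood libraries, 4 had a highest value set far apart from the others. Chance gives such a gap in about 1 of 20 groups of normally distributed values, but in these libraries it occurred for 31.2% of 7171 genes. Tgfbr1 had 245 CPM in Sample_42B8 of 4 weeks, and the next library had 114 CPM. Smad2 had 311 CPM in the same library, and the next had 160 CPM. Smad7 had 172 CPM in Sample_302B8 of 30 weeks, and the next had 93.2 CPM. Skil had 752 CPM in Sample_131B8 of 13 weeks, and the next had 310 CPM. No cause was tested.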

How the results depend on the processing

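None of the 10 genes passed in any comparison under any alternative run. The number of all genes called did change. Between tissues it was 10, and it became 34 with no filter, 487 by DESeq2, 65 with no age term, 6 in the first carry-over set alone and 2 in the second. For the pancreas trend 28 became 686 with no filter, 735 by DESeq2, and 0 with the set as a term or in either set alone. For the blood trend 0 became 102 with no filter and 412 by DESeq2. For the difference of trends 6 became 0 with RLE size factors, 343 by DESeq2, 1 with the set as a term and 0 with the title number as a replicate block. DESeq2 called 175 (main 28) and 10 (main 0) genes for KC against WT in pancreas and blood. The causes were not tested. RLE factors moved the median of all genes in the blood trend from -0.12 to -0.24.

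Leaving out 1 library gave 6 (without Sample_302P8) to 21 (without Sample_131B8) calls between tissues, 10 (Sample_42P8) to 31 for the pancreas trend, where leaving out Sample_204P8, Sample_205P8 or Sample_41P8 gave 16 to 18, and 0 to 12 (Sample_302B8 and Sample_303B8) for the blood trend. It gave 0 (9 of 21 libraries) to 13 (Sample_302P8) for the difference of trends, 4 (Sample_W1P8) to 29 for KC against WT in pancreas, where Sample_W3P8 gave 11 and Sample_95P8 gave 8, and 0 to 2 (Sample_132B8) in blood.

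Signs of single genes, none of which passed, turned as follows on the log2 scale. Between tissues, the second set alone gave -0.17 for Tgfb1, -0.27 for Smad3, -0.0094 for Smad4 and -0.55 for Smad7, and the first set alone -0.97 for Ski and -1.03 for Skil, against 1.79 and 1.51 in the second set. In the pancreas trend, the set as a term gave 0.11 for Smad4, 0.21 for Smad7 and 0.47 for Smurf2. The first set alone gave 2.17 for Tgfb1, -0.74 for Tgfbr2, -0.18 for Smad2, 1.38 for Smad4, 0.29 for Smad7, 0.80 for Smurf2 and a median of 0.93 over the 10 genes, and the second set alone 0.16 for Smad7 and 0.38 for Smurf2. In the blood trend, the set as a term gave 0.30 for Tgfbr1, 0.087 for Smad2, 0.64 for Skil and -0.0070 for Smurf2, and the second set alone 0.57, 0.21 and 0.28 for Tgfbr1, Smad2 and Skil. Same-numbered titles were not taken to pair the libraries, since their deviations correlated at -0.055 to 0.0066 over 7 pairs (5 distinct values) and 0 correlated best with their own number, which does not show that the numbers mark different animals. The replicate block on that number called 14 genes between tissues, none of the 10, and gave -0.40 for Smad4 there and 0.17 in the difference of trends.

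With 1 library left out, estimates whose sign turned ranged as follows. Between tissues Tgfbr2 ran from -0.12 to 0.27, Smad3 from -0.086 to 1.04, Smad4 from -0.38 to 0.24 and Smad7 from -0.039 to 0.63. In the pancreas trend Tgfbr1 ran from -0.56 to 0.012, Smad3 from -0.74 to 0.72, Smad4 from -0.31 to 0.00014, Smad7 from -0.40 to 0.24, Ski from -0.0095 to 0.37 and Smurf2 from -0.24 to 0.16. In the blood trend Tgfb1 ran from -0.40 to 0.17, Tgfbr1 from -0.61 to 0.50, Smad2 from -0.64 to 0.053, Smad3 from -0.83 to 0.67, Smad4 from -0.22 to 0.065 and Smad7 from -0.12 to 0.30. In the difference of trends Tgfbr1 ran from -0.71 to 0.50, Tgfbr2 from -0.24 to 0.12, Smad3 from -0.83 to 1.22, Smad4 from -0.25 to 0.12 and Smad7 from -0.51 to 0.097. For KC against WT in pancreas Tgfb1 ran from -0.74 to 0.50, Tgfbr2 from -1.11 to 0.82, Smad2 from -1.87 to 0.18, Smad3 from -2.24 to 2.22, Smad4 from -0.096 to 0.83 and Ski from -0.13 to 0.72, and in blood Smad2 from -0.052 to 0.17, Smad3 from -2.65 to 1.25, Smad4 from -0.28 to 0.57 and Skil from -0.18 to 0.72. KC against WT in blood without its only WT library could not be fitted, and without a WT pancreas library the lone other one was assumed to vary like the KC libraries.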
